A study of Oryza sativa Japonica Group with 6 samples.

Results

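Rubisco fixes carbon dioxide in the chloroplast, and its small subunits are encoded by a small family of nuclear genes. The 5 rice genes listed as small subunit genes and the 1 listed as Rubisco activase were followed across leaves of an OsWRKY65-overexpressing line and of wild type. They were chosen by gene identifier, with earlier results of these data known, and are 6 of the 37863 genes in the deposited table. The identifiers place 4 small subunit genes on chromosome 12 (Os12g0274700, Os12g0291100, Os12g0291400 and Os12g0292400), the other small subunit gene on chromosome 2 (Os02g0152400) and activase on chromosome 11 (Os11g0707000).

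The study compared 3 libraries of polyA RNA from OsWRKY65-2, a transgenic rice line that overexpresses the WRKY transcription factor OsWRKY65, with 3 libraries from wild type (WT). All plants were Oryza sativa of the Japonica group, grown on MS medium at 28 °C with 16 h of light and 8 h of dark, and leaves were sampled from seedlings 14 days after planting. OsWRKY65-2 is a single transgenic line, and the labels name neither the promoter that drives the transgene nor the time of day of sampling. Whether replicates came from separate plants is not stated, and p-values therefore reflect library-to-library spread that could be partly technical.

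Rubisco is built from large subunits, which plants encode in the plastid genome, and small subunits, which are made in the cytosol, imported into the chloroplast and assembled with the help of chaperones. Its active sites become blocked by sugar phosphates, and Rubisco activase, an ATPase of the chloroplast stroma, frees them. In leaves the small subunit and activase transcripts are among the most abundant of all nuclear transcripts, and in many plants the level of activase mRNA follows a daily rhythm.

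The annotation in the table does not treat the members alike. Os12g0274700, Os12g0291400 and Os12g0292400 are annotated as similar to a petunia small subunit mRNA, and Os02g0152400 as Rubisco small subunit 1. Os12g0291100 and Os11g0707000 are annotated only as non-protein coding transcripts. Os12g0291100 carries the same older locus name as the annotated small subunit gene Os12g0291400, and Os11g0707000 is identified with rice activase through its older locus name, from general knowledge. Near-identical small subunit copies can share reads, so the split among the chromosome 12 genes, including that between Os12g0291100 and Os12g0291400, is uncertain.

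The libraries held between 20585288 and 29720852 counts. Os12g0116800, identified with OsWRKY65 through its older locus name, had 1326, 1186 and 19440 counts in OsWRKY65-2 replicates 1, 2 and 3, against 104, 0 and 0 counts in WT replicates 1, 2 and 3. OsWRKY65-2 replicate 3 stood apart, with a count for 20893 genes against 24091 to 27129 in the other 5 libraries, and its correlation across genes with the other libraries was 0.698 to 0.785, against 0.923 to 0.964 among them. It had no count for 2444 genes whose median elsewhere was above 50 counts, against 28 to 198 such genes in the other libraries. Values of the members are therefore given with and without it.

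The 4 chromosome 12 genes supplied nearly all small subunit transcript in both genotypes, and their summed level was higher on average in OsWRKY65-2 without the groups being separated. Levels are given first as TPM, the length-scaled transcript abundances deposited by the authors, which sum to 1000000 in each library. Together the 5 small subunit genes made up 3.23%, 3.39% and 3.54% of all TPM in OsWRKY65-2, against 2.15%, 2.05% and 3.30% in WT. The mean was 3.39% ± 0.154 in OsWRKY65-2 and 2.50% ± 0.692 in WT (SD, n = 3 each). WT replicate 3 lay above OsWRKY65-2 replicate 1, so the groups overlapped. Across a bulk leaf sample, more cells of a type and more RNA per cell cannot be told apart.

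Os12g0274700 was the family member with the largest difference between the group means, with 11145, 11579 and 13043 TPM in OsWRKY65-2, against 4681, 4177 and 8804 TPM in WT. Every OsWRKY65-2 library was above every WT library, and WT replicate 3 was well above the other WT libraries. The mean was 11922 ± 995 TPM in OsWRKY65-2 and 5887 ± 2539 TPM in WT (SD, n = 3 each). In edgeR's quasi-likelihood test on the counts, the log2 fold change was 1.22 ± 0.39 (SE), a fold of 2.33. The adjusted p was 0.763 over 23769 genes in edgeR, so it did not pass the threshold of 0.05. An exact two-sided permutation test of its TPM gave p = 0.1, and with 3 libraries in each group no smaller value can be reached.

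The rest of the genome sets the scale for that result. The edgeR test called 0 genes higher and 0 lower of the 23769 tested (0%), while 1547 genes (6.51%) had an unadjusted p under 0.05, of which 1010 (4.25% of those tested) were higher in OsWRKY65-2. Os12g0274700 was the sole member among those 1010, and 2.24% of tested genes had a smaller p. DESeq2 on the same counts called 419 genes higher (1.76%) and 303 lower (1.27%), with no member among them. Without OsWRKY65-2 replicate 3, edgeR called 13 genes higher (0.0527%) and 6 lower (0.0243%) of 24677, again with no member among them. In that edgeR fit the value for Os12g0274700 was 1.13 ± 0.41 on the log2 scale, with an adjusted p of 0.398.

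**Figure D1:**
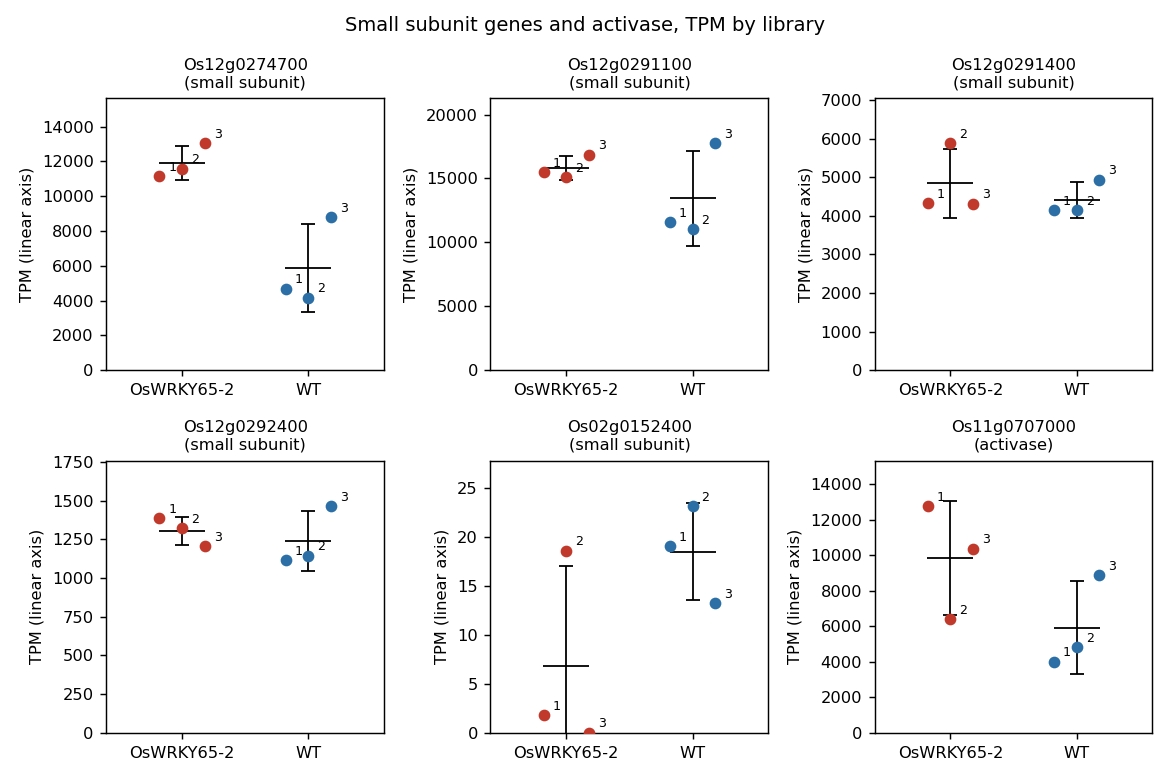
TPM of each small subunit gene and of activase in the 3 OsWRKY65-2 libraries (red, left) and the 3 WT libraries (blue, right), numbered by replicate, with the mean and SD in black on a linear axis that starts at 0. Os12g0274700 is the sole gene of the 6 whose OsWRKY65-2 libraries all lie above all WT libraries, and WT replicate 3 is the highest WT library for every gene except Os02g0152400.

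Os12g0291100 was the most abundant member in every library. It had 15479, 15112 and 16843 TPM in OsWRKY65-2, against 11581, 11020 and 17749 TPM in WT. In each of the 6 libraries the only genes with more TPM were 3 annotated as Rubisco large subunit. The highest value was that of WT replicate 3, while the other WT libraries were below all OsWRKY65-2 libraries. The means were 15811 ± 912 TPM in OsWRKY65-2 and 13450 ± 3733 TPM in WT (SD, n = 3 each), and the log2 fold change was 0.44 ± 0.31 (SE, adjusted p = 0.811, edgeR). Without WT replicate 3 the log2 fold change was 0.78, again short of the threshold (adjusted p = 0.999, edgeR).

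Os12g0291400, the annotated small subunit gene that shares an older locus name with it, was below it in every library. It had 4325, 5880 and 4318 TPM in OsWRKY65-2, against 4140, 4149 and 4939 TPM in WT. OsWRKY65-2 replicate 2 was the highest library and the groups overlapped. The log2 fold change was 0.36 ± 0.23 (SE, adjusted p = 0.797, edgeR). A neighbouring identifier annotated as a small chain, Os12g0291200, had 57, 82 and 96 counts in OsWRKY65-2, against 0, 0 and 48 counts in WT, and did not pass the test (adjusted p = 0.833, edgeR).

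Os12g0292400 was the lowest of the chromosome 12 genes, with 1384, 1323 and 1205 TPM in OsWRKY65-2, against 1116, 1145 and 1465 TPM in WT. The OsWRKY65-2 libraries all lay between the lowest and the highest WT library. Its log2 fold change was 0.30 ± 0.24 (SE, adjusted p = 0.832, edgeR), and 0.51 without WT replicate 3 (adjusted p = 0.999, edgeR). Without OsWRKY65-2 replicate 3 the log2 fold changes were 0.38 for Os12g0291100, 0.41 for Os12g0291400 and 0.33 for Os12g0292400, none past the threshold in edgeR. For the same TPM it carried 2.38 to 2.40 times the counts of Os12g0274700, so its level and share depend on the authors' length scaling. In counts, too, it was the lowest of the chromosome 12 genes in every library.

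Os02g0152400, annotated as Rubisco small subunit 1, is known in rice as the family member expressed mainly outside the leaf blade. Here it had 1.83, 18.6 and 0 TPM in OsWRKY65-2, against 19.1, 23.2 and 13.3 TPM in WT. These rest on 27, 367 and 0 counts in OsWRKY65-2 and on 284, 460 and 225 counts in WT, where a count of 0 allows up to 3 counts in that library. Replicates 1 and 3 of OsWRKY65-2 were below every WT library, and replicate 2 lay within the WT range. The log2 fold change of -1.23 had an SE of 1.55, larger than itself (adjusted p = 0.893, edgeR). Without OsWRKY65-2 replicate 3, where 2444 otherwise well-counted genes also had no count, it was -0.65 ± 0.73 (SE, adjusted p = 0.824, edgeR).

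In the make-up of the small subunit pool, the share of Os12g0274700 was higher in OsWRKY65-2 and those of Os12g0291100 and Os12g0292400 lower, without overlap. These are not separate results, since the shares sum to the whole. In mean TPM neither Os12g0291100 nor Os12g0292400 was lower in OsWRKY65-2. Os12g0274700 supplied 34.5%, 34.1% and 36.8% of small subunit TPM in OsWRKY65-2, against 21.7%, 20.4% and 26.7% in WT. The lowest OsWRKY65-2 share was above the highest WT share, and the means were 35.1% ± 1.47 in OsWRKY65-2 and 22.9% ± 3.34 in WT (SD, n = 3 each), a difference of 12.2 percentage points. Os12g0291100 supplied 47.9%, 44.6% and 47.6% in OsWRKY65-2, against 53.8%, 53.7% and 53.8% in WT, and here all OsWRKY65-2 libraries were below all WT libraries. The SD of that share over the 3 WT libraries was 0.0562 percentage points on TPM and 0.673 on counts.

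The less abundant members also supplied smaller mean shares in OsWRKY65-2. Os12g0292400 supplied 4.28%, 3.90% and 3.40% in OsWRKY65-2, against 5.18%, 5.58% and 4.44% in WT, with all OsWRKY65-2 libraries below all WT libraries. Os12g0291400 supplied 13.4%, 17.3% and 12.2% in OsWRKY65-2, against 19.2%, 20.2% and 15.0% in WT, and these groups overlapped. Os02g0152400 supplied at most 0.0550% in OsWRKY65-2 and at most 0.113% in WT. Shares of a whole are tied to each other, so a higher share of 1 gene lowers the rest, and these shares were described without a test. The shares also depend on how reads shared by near-identical copies were assigned.

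**Figure D2:**
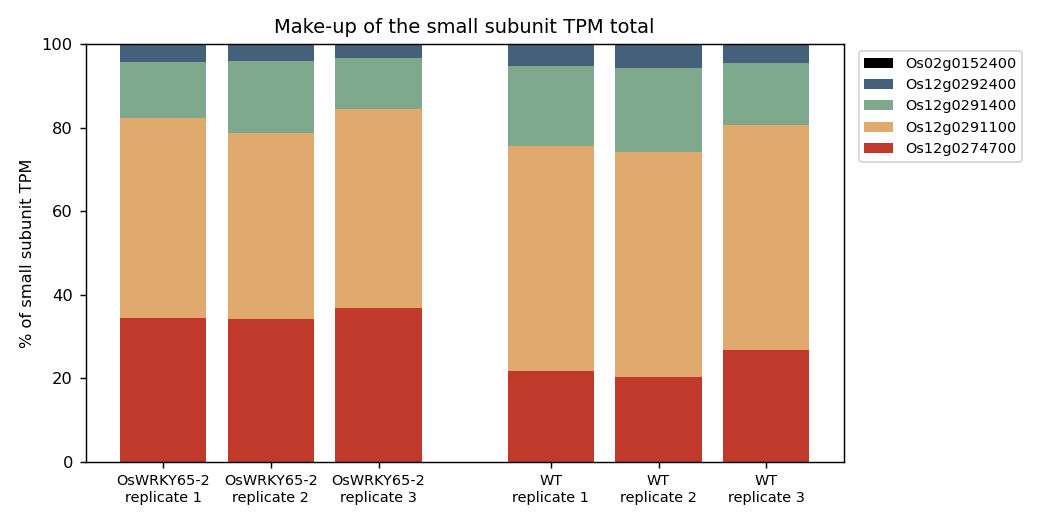
Share of the small subunit TPM total (vertical axis, %) supplied by each small subunit gene in each library, with OsWRKY65-2 on the left and WT on the right. The red segment at the base, Os12g0274700, is 34.1% to 36.8% in OsWRKY65-2 and 20.4% to 26.7% in WT, and Os02g0152400 is too small to be seen.

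The ratio of Os12g0274700 to Os12g0291100 restates their shares without the rest of the family, so it follows from them and depends on the same read assignment. It was 0.720, 0.766 and 0.774 in OsWRKY65-2, against 0.404, 0.379 and 0.496 in WT, computed on TPM. WT replicate 3, in which both genes were high, had the highest ratio of the WT libraries and was still below all OsWRKY65-2 libraries. Of the mean difference of 0.888 percentage points in small subunit share of all TPM, Os12g0274700 accounted for 0.603 points and the other 4 genes together for 0.284. Without Os12g0274700 the small subunit genes made up 2.12%, 2.23% and 2.24% of all TPM in OsWRKY65-2, against 1.69%, 1.63% and 2.42% in WT, where WT replicate 3 was the highest of the 6 libraries.

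Activase varied more between replicates than any of the chromosome 12 genes did in OsWRKY65-2. Os11g0707000 had 12774, 6390 and 10378 TPM in OsWRKY65-2, against 4013, 4823 and 8893 TPM in WT. OsWRKY65-2 replicate 2 lay below WT replicate 3, so the groups overlapped, while all OsWRKY65-2 libraries were above the other WT libraries. The means were 9847 ± 3225 TPM in OsWRKY65-2 and 5910 ± 2615 TPM in WT (SD, n = 3 each). The log2 fold change was 0.97 ± 0.47 (SE, adjusted p = 0.764, edgeR), and an exact two-sided permutation test of its TPM gave p = 0.2. It was 0.93 ± 0.50 without OsWRKY65-2 replicate 3 (SE, adjusted p = 0.551, edgeR) and 1.49 without WT replicate 3 (adjusted p = 0.999, edgeR).

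The balance between activase and its substrate's small subunits did not separate the genotypes. Small subunit TPM was 2.53, 5.31 and 3.41 times activase TPM in OsWRKY65-2, against 5.37, 4.25 and 3.71 times in WT. The highest ratio of OsWRKY65-2, in replicate 2, was close to the highest of WT, in replicate 1. Other activase annotations added little. Os11g0707050, annotated as a large isoform of activase, had 0 counts in all 6 libraries, which allows up to 3 counts per library, or 0.0917 to 0.160 CPM (counts scaled to 1000000). Os04g0658300, annotated as activase-like, averaged 22.7 ± 8.10 TPM in OsWRKY65-2 and 24.7 ± 3.40 TPM in WT (SD, n = 3 each; log2 fold change 0.11, adjusted p = 0.959, edgeR).

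The order of the members by mean level differed in 1 place between the genotypes. In OsWRKY65-2 it ran from Os12g0291100 through Os12g0274700, activase, Os12g0291400 and Os12g0292400 to Os02g0152400. There Os12g0274700 was above activase in 2 of 3 libraries and below it in replicate 1. In WT activase and Os12g0274700 had nearly equal means, 5910 and 5887 TPM, and exchanged places between libraries. The steps down to Os12g0292400 and to Os02g0152400 held in every library of both genotypes.

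The members were then read against all tested genes. A positive log2 fold change was found for 5 of 6 members, against 49.5% of all tested genes, and for 5 of 6 without OsWRKY65-2 replicate 3, against 51.6%. The median log2 fold change was 0.40 over the members and -0.01 over all tested genes. All OsWRKY65-2 libraries were above all WT libraries for 1 of 6 members, in CPM against 7.16% of all tested genes and in TPM against 3.90%. The reverse held for 0 of 6 members, against 10.5% of all genes in CPM and 18.4% in TPM. With 6 members these counts are a description.

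**Figure D3:**
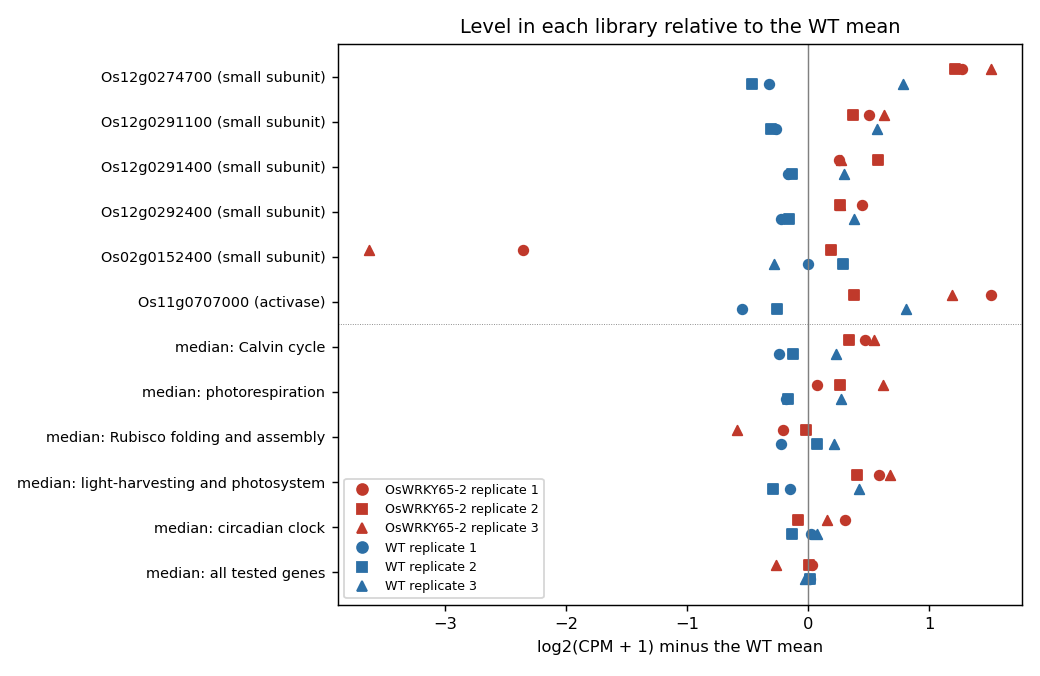
Level of each member in each library as log2(CPM + 1) minus the WT mean (horizontal axis). Below are the medians of the Calvin cycle, photorespiration, folding and assembly, light-harvesting and clock lists and of all tested genes. OsWRKY65-2 is in red above WT in blue, with replicates 1, 2 and 3 as circles, squares and triangles. WT replicate 3 (blue triangle) lies at 0.30 to 0.81 for the chromosome 12 genes and activase, to the right of the other WT libraries, and OsWRKY65-2 replicates 1 and 3 lie far to the left for Os02g0152400.

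WT replicate 3 was the highest WT library for all 4 chromosome 12 genes and for activase. On the log2(CPM + 1) scale it was above the WT mean by 0.79 for Os12g0274700, 0.57 for Os12g0291100, 0.30 for Os12g0291400, 0.38 for Os12g0292400 and 0.81 for activase. Its median over the tested light-harvesting and photosystem genes was 0.42, against -0.15 and -0.29 in WT replicates 1 and 2. What sets WT replicate 3 apart was not tested. When it was left out, the log2 fold change of Os12g0274700 was 1.73 ± 0.21 (SE, adjusted p = 0.999, edgeR).

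Genes annotated as Rubisco large subunit were higher on average in OsWRKY65-2 too. The large subunit belongs to the plastid genome, and the table lists 5 genes with its annotation under nuclear identifiers. The libraries were of polyA RNA, and how far they capture plastid transcripts was not tested. Whether these reads came from plastid or nuclear copies was not tested either. Their sum was 16.3%, 12.6% and 16.2% of all TPM in OsWRKY65-2, against 9.31%, 8.42% and 12.0% in WT. All OsWRKY65-2 libraries were above all WT libraries, and OsWRKY65-2 replicate 2 was the closest to WT replicate 3. The 3 most abundant genes in every library were Os01g0791033, Os10g0356000 and Os12g0207600 of this group, with log2 fold changes of 0.82 ± 0.30, 0.84 ± 0.29 and 0.83 ± 0.30 (SE; adjusted p = 0.763 for each, edgeR). These genes may be near-identical copies that share reads, which was not tested, and they do not count as separate evidence.

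The balance between the subunit classes overlapped between genotypes. Large subunit-annotated TPM was 5.05, 3.70 and 4.57 times small subunit TPM in OsWRKY65-2, against 4.32, 4.10 and 3.65 times in WT. OsWRKY65-2 replicate 2 was near the lowest WT library and the other OsWRKY65-2 libraries were above the WT range. Of the 11 genes with a Rubisco annotation outside the members, 10 were tested, 8 had a positive log2 fold change and none was called. The 8 included the 5 large subunit-annotated genes, which may share reads. The 3 genes annotated as methylating Rubisco were divided. Os02g0725200, annotated as the small subunit N-methyltransferase, averaged 59.4 ± 4.78 TPM in OsWRKY65-2 and 77.9 ± 4.73 TPM in WT (SD, n = 3 each), but its log2 fold change on the count scale was -0.12 (adjusted p = 0.911, edgeR). Between these scales the median log2 fold change of all tested genes was -0.28 in the limma fit on TPM and -0.01 in edgeR. Os09g0411650, annotated as the large subunit methyltransferase, had 15.7, 33.1 and 6.11 TPM in OsWRKY65-2, against 34.9, 38.9 and 42.8 TPM in WT (log2 fold change -0.88, adjusted p = 0.793, edgeR). Os01g0879500, annotated as a Rubisco and cytochrome methylase, averaged 6.27 ± 2.91 TPM in OsWRKY65-2 and 5.09 ± 2.62 TPM in WT (SD, n = 3 each; log2 fold change 0.54, adjusted p = 0.860, edgeR).

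**Figure D4:**
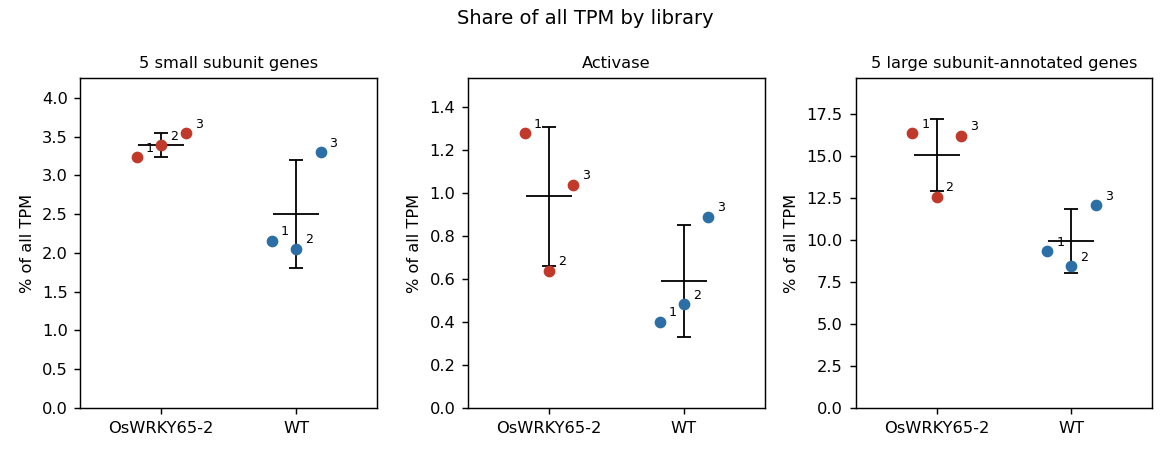
Share of all TPM (vertical axis, %, from 0) of the 5 small subunit genes, of activase and of the 5 large subunit-annotated genes, with OsWRKY65-2 (red, left) and WT (blue, right) libraries numbered by replicate and the mean and SD in black. The groups overlap for the small subunits and activase, whereas large subunit-annotated genes are 12.6% to 16.3% in OsWRKY65-2 and 8.42% to 12.0% in WT.

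The Calvin cycle enzymes that work with Rubisco leaned the same way on average. Of 24 listed genes 23 were tested, 18 had a positive log2 fold change, the median was 0.45 and none was called by edgeR. With library totals alone as the scale, 16 were positive with a median of 0.28, and in the limma fit on TPM 15 were positive with a median of 0.27. Without OsWRKY65-2 replicate 3, 21 of 24 were positive in edgeR. Os04g0459500, annotated as a glyceraldehyde phosphate dehydrogenase, had 1212, 1187 and 1688 TPM in OsWRKY65-2, against 459, 447 and 806 TPM in WT. All its OsWRKY65-2 libraries were above all WT libraries, and its log2 fold change was 1.47 ± 0.37 (SE, adjusted p = 0.763, edgeR).

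The groups overlapped for the other 3 genes named from this list for their abundance. Phosphoribulokinase, Os02g0698000, which makes the sugar that Rubisco carboxylates, averaged 1248 ± 342 TPM in OsWRKY65-2 and 734 ± 304 TPM in WT (SD, n = 3 each; log2 fold change 0.98, adjusted p = 0.764, edgeR). Chloroplast fructose-bisphosphate aldolase, Os11g0171300, averaged 4458 ± 1153 TPM in OsWRKY65-2 and 3139 ± 792 TPM in WT (log2 fold change 0.74, adjusted p = 0.764, edgeR). Os03g0129300, placed in the list by identifier since its annotation names only a cDNA clone, averaged 1180 ± 131 TPM in OsWRKY65-2 and 937 ± 236 TPM in WT. DESeq2 called 2 of the 23 genes higher, against 1.76% of all tested genes. These were Os04g0459500 (adjusted p = 0.0101, DESeq2) and Os01g0303000, annotated as CP12, a regulator that binds cycle enzymes in the dark (adjusted p = 0.0225, DESeq2). Os01g0303000 had 247, 207 and 574 TPM in OsWRKY65-2, against 156, 114 and 133 TPM in WT. OsWRKY65-2 replicate 3 was far above the rest, and the edgeR log2 fold change was 1.61 with it and 0.98 without it (adjusted p = 0.763 and 0.208, edgeR). For Os03g0306800, also annotated as CP12, edgeR gave -0.22 on the log2 scale with an adjusted p of 0.868.

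Photorespiration recycles the product made when Rubisco uses oxygen. Of 20 listed genes 18 were tested, 11 had a positive log2 fold change, the median was 0.19 and none was called. With library totals as the scale, and likewise in the limma fit on TPM, 9 of 18 were positive and the median was near 0. Glycolate oxidase, Os03g0786100, serine-glyoxylate aminotransferase, Os08g0502700, and serine hydroxymethyltransferase, Os03g0738400, had log2 fold changes of 0.92, 0.88 and 0.92 (adjusted p = 0.763 for each, edgeR). Among the 4 most abundant the largest, 1.40 ± 0.45 (SE, adjusted p = 0.763, edgeR), was that of Os01g0711400, annotated as victorin binding protein, the name given in oat to a subunit of glycine decarboxylase. It had 1497, 577 and 1453 TPM in OsWRKY65-2, against 487, 445 and 658 TPM in WT, and replicate 2 of OsWRKY65-2 lay within the WT range. Other listed copies differed in direction. For glycolate oxidase, Os07g0152900 was at 1.19 (edgeR), and Os08g0198700, Os07g0616500 and Os04g0623500 were at -0.29, -0.59 and -0.50. For serine hydroxymethyltransferase, Os01g0874900 and Os12g0409000 were at 0.28 and 0.01, and Os11g0455800 and Os09g0278300 at -0.41 and -0.99.

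Genes for the folding and assembly of Rubisco were divided in direction. Of 13 tested genes 6 had a positive log2 fold change, the median was -0.03, and none was called by edgeR. Among the positive were the genes annotated as RbcX chaperonin-like. Their log2 fold changes were 2.18 for Os03g0807900, 0.88 for Os07g0569600 and 0.54 for Os08g0425200 (adjusted p = 0.763, 0.763 and 0.824, edgeR). Without OsWRKY65-2 replicate 3 they were 0.68, 0.96 and 0.02. Os06g0114000, annotated as the beta subunit of the chaperonin that binds new large subunits, had 561, 1122 and 190 TPM in OsWRKY65-2, against 952, 1368 and 1442 TPM in WT. OsWRKY65-2 replicate 2 lay within the WT range (log2 fold change -0.83 ± 0.59 SE, adjusted p = 0.819, edgeR). For the alpha subunit gene Os12g0277500 it was -0.89 ± 0.69 (SE), and edgeR gave an adjusted p of 0.825. OsWRKY65-2 replicate 3 was the lowest library for both, and without it the values were -0.41 for Os06g0114000 and -0.42 for Os12g0277500 (adjusted p = 0.739 and 0.716, edgeR).

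Os06g0332800, similar to Bundle sheath defective protein 2, known in maize as a factor needed for Rubisco to accumulate, had 74.0, 99.7 and 51.0 TPM in OsWRKY65-2, against 138, 192 and 190 TPM in WT. Here all OsWRKY65-2 libraries were below all WT libraries, and the log2 fold change was -0.99 ± 0.30 (SE, adjusted p = 0.763, edgeR). DESeq2 called it lower (adjusted p = 0.0344), together with Os09g0438700, annotated as the chloroplast co-chaperonin (adjusted p = 0.0305, DESeq2), so that 2 of 13 genes were called lower, against 1.27% of all tested genes. Without OsWRKY65-2 replicate 3 the list's median was -0.41, with 6 of 13 positive.

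**Figure D5:**
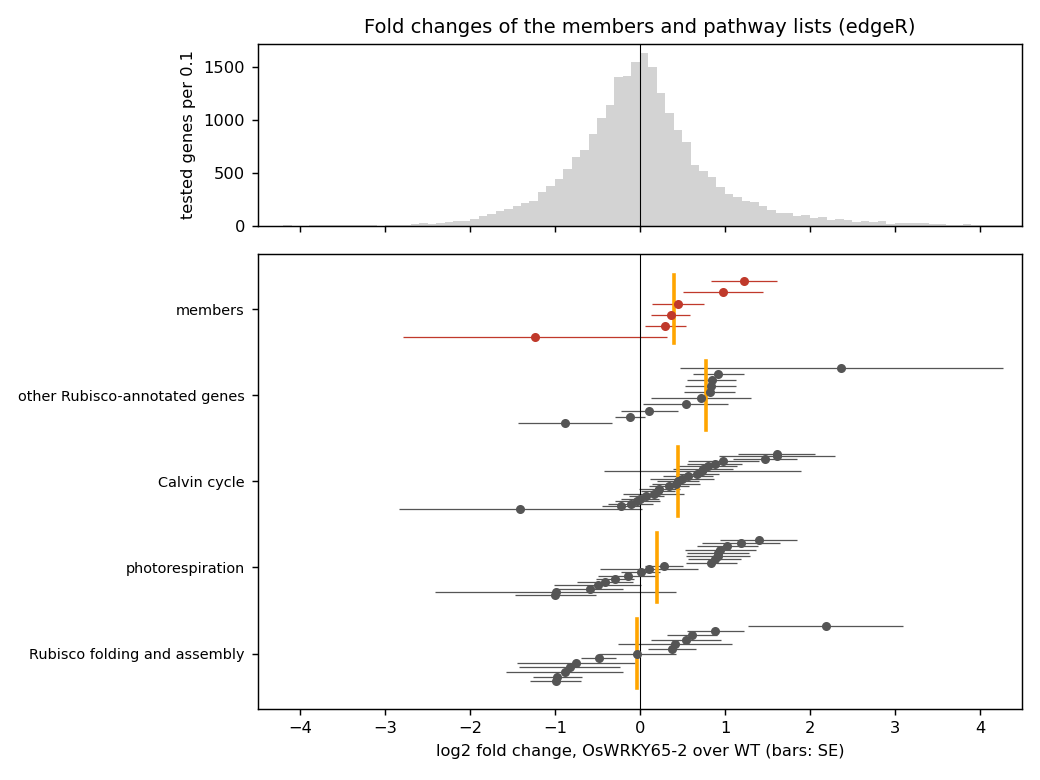
Top, number of tested genes by log2 fold change (OsWRKY65-2 over WT, edgeR, in steps of 0.1). Below, each tested gene of 5 groups with its SE and the group's median in orange. The medians are 0.40 for the members, 0.77 for other Rubisco-annotated genes and 0.45 for the Calvin cycle. They are 0.19 for photorespiration and -0.03 for folding and assembly. The other Rubisco-annotated genes include the 5 large subunit-annotated genes, which may share reads.

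The genes whose levels were most like those of the small subunits and of activase were named by a fixed measure. Likeness was the root mean square difference of centred log2(TPM + 1) over the 6 libraries, among 10367 tested genes with a mean of at least 10 TPM. Closest to the summed small subunit TPM was Os07g0141400, annotated as the 23 kDa polypeptide of photosystem II, at 0.0539, against a range of 0.79 for the sum itself. Next were Os01g0501800, annotated as part of the oxygen-evolving complex, at 0.0675, then Os01g0693800, annotated as threonine synthase, at 0.0836 and Os09g0346500, annotated as a chlorophyll a/b binding protein, at 0.0906. Closest to activase was Os07g0152900, annotated as a glycolate oxidase, at 0.104, against a range of 1.67 for activase. It had 836, 390 and 724 TPM in OsWRKY65-2, against 248, 270 and 519 TPM in WT, so it too was lowest of the OsWRKY65-2 libraries in replicate 2 and highest of the WT libraries in replicate 3. The next were Os02g0533200, annotated as a SOUL haem-binding protein, at 0.109, Os06g0611900, annotated as victorin binding protein, at 0.116 and Os01g0913000, annotated as an F-type thioredoxin, at 0.146.

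Among light-harvesting and photosystem genes most values were higher on average in OsWRKY65-2. Of 51 tested genes 37 had a positive log2 fold change, also with library totals as the scale and in the limma fit on TPM, and the median was 0.60. None was called, and 19 of the 51 had all OsWRKY65-2 libraries above all WT libraries in CPM, against the 7.16% of all tested genes. The 3 most abundant were Os04g0473150 (photosystem II protein D1), Os08g0200300 (a photosystem II polypeptide) and the chlorophyll a/b binding protein gene Os09g0346500. Their log2 fold changes were 0.95 ± 0.52, 1.05 ± 0.48 and 0.65 ± 0.26 (SE, adjusted p = 0.772, 0.764 and 0.763, edgeR). The groups overlapped for Os08g0200300 and for Os04g0473150, whose lowest library was OsWRKY65-2 replicate 2. Whether the reads of Os04g0473150 came from plastid or nuclear copies was not tested. Os07g0147500, annotated as a photosystem II 10 kDa polypeptide like Os08g0200300, went the other way, at -1.55 ± 0.90 (SE, adjusted p = 0.778, edgeR). Clock genes were compared because activase mRNA is rhythmic in many plants. Of 10 tested, 7 had a positive log2 fold change with a median of 0.18, but only 5 did with library totals as the scale and 3 in the limma fit on TPM.

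The 3 most abundant clock genes, Os01g0182600 (GIGANTEA), Os03g0284100 and Os09g0532400, had log2 fold changes of 0.07, 0.22 and 0.17. Os08g0157600, annotated as LHY, a morning clock factor, was picked out after its values were seen. It had 170, 54.9 and 169 TPM in OsWRKY65-2, against 64.0, 62.7 and 120 TPM in WT, so replicate 2 was the lowest OsWRKY65-2 library and replicate 3 the highest WT library, as for activase. Its log2 fold change was 0.95 ± 0.56 (SE, adjusted p = 0.778, edgeR). In TPM, none of the other listed clock genes was both lowest in replicate 2 within OsWRKY65-2 and highest in replicate 3 within WT. In CPM, however, Os03g0284100, Os09g0532400, Os06g0142600 and Os01g0566100 had that order too, so it was not particular to LHY. The part of sampling time in the members' values was not tested.

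Markers of root and shoot meristem were low. Root markers summed to 7.63 to 12.6 TPM in OsWRKY65-2 and to 4.59 to 9.70 TPM in WT, with Os03g0107300 and Os03g0667500 at 0 in every library. Shoot meristem markers summed to 0 to 9.29 TPM in OsWRKY65-2 and to 0 to 8.23 TPM in WT, with Os03g0772100 at 0 in every library. The 5 chlorophyll breakdown and senescence genes summed to 126 to 278 TPM in OsWRKY65-2, the highest being replicate 3, and to 175.7 to 178 TPM in WT. Their median log2 fold change was 0.82 with 4 of 5 positive, and -0.20 with 1 of 5 positive without OsWRKY65-2 replicate 3. The part of other tissues and of senescence in the members' values was not tested.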

How the data were processed

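Per the file headers, the authors' deposited table holds read counts, FPKM and TPM by gene and library, beside RAP-DB identifiers, older locus names and annotations. The genome build was IRGSP-1.0 and the tools listed are StringTie 2.1.3b, HISAT2 2.1.0, Trimmomatic and bcl2fastq 2.20.0, per the submitters' processing notes. Not given in the sources used here are the strand and counting options. As deposited, the read counts are whole estimated counts. The deposited TPM sum to 1000000 per library, and 6 FPKM columns were not used. Besides the 3 count columns that name OsWRKY65-2, 3 have a prefix with no explanation in the labels. They were read as WT, the only samples left, and every direction depends on this. No positions are given, since no genome of the files' build was used here.

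Counts were tested with edgeR 4.0.16 (R 4.3.3): the robust quasi-likelihood test, genotype as sole term, TMM factors, a minimum count of 10 in filterByExpr, and Benjamini-Hochberg adjustment over all 23769 tested genes. A gene was called at an adjusted p under 0.05. The SE is the log2 fold change divided by the square root of the F statistic. DESeq2 1.42.0 and limma 3.58.1 (with voom, and on log2(TPM + 1) and log2(TPM + 0.1)) served as alternatives. Scripts were tested on simulated data. CPM used TMM factors, and 3 counts served as the floor for a count of 0, which covers counting error only.

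The members and the 9 pathway lists, built from identifiers and annotation patterns with 39 mismatched genes removed by annotation, were chosen with earlier results of these data known. Every member is named. From each list the genes called are named and otherwise the 3 or 4 with the highest mean TPM. Marker lists of other tissues and senescence are given as sums. Genes called by DESeq2 and LHY were added after their values were seen. Further genes of the lists, such as Os07g0147500, Os03g0306800 and the RbcX genes, were named outside this rule with their values known. Likeness was computed over tested genes with a mean of at least 10 TPM and an informative annotation. Sequences were not used here.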

Additional observations from a re-analysis of the deposited data

How the results depend on the processing

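No member changed direction or passed the threshold under any of the 16 alternatives run. The log2 fold change spanned 0.99 to 1.73 for Os12g0274700 (adjusted p 0.0600 to 0.999, the lowest from DESeq2), 0.27 to 0.78 for Os12g0291100, 0.12 to 0.52 for Os12g0291400, 0.08 to 0.51 for Os12g0292400, -3.92 to -0.65 for Os02g0152400 and 0.71 to 1.49 for activase (adjusted p 0.299 to 0.999). The highest value of each chromosome 12 gene and of activase came without WT replicate 3, and both ends for Os02g0152400 came from leaving out OsWRKY65-2 replicate 2 or 3. Genes called higher, 0 in the edgeR test, numbered 2 with no filter on low counts, 2 in limma on TPM with either pseudocount and 419 in DESeq2, which called 303 lower. With 1 library left out at a time, calls ranged over 0 to 13 higher and 0 to 6 lower, all of them without OsWRKY65-2 replicate 3. On counts in place of TPM, the share of Os12g0291100 in the small subunit total differed by -5.74 percentage points (OsWRKY65-2 minus WT, -7.11 on TPM) and that of Os12g0292400 by -2.34 (-1.21 on TPM), and the difference in small subunit share of the library was 0.580 percentage points (0.888 on TPM), while leaving out WT replicate 3 put it at 1.29. The small subunit to activase ratio differed by -0.69, with -1.47 to -0.0831 when 1 library was left out, the ends coming without OsWRKY65-2 replicates 2 and 1. With library totals as the scale the median log2 fold change of all genes was -0.19, with voom -0.11 and on TPM -0.28 and -0.34. Same-numbered libraries deviated with correlations of 0.0816, -0.0739 and -0.0114, so the numbers were not taken to pair them, and a replicate block gave 0 genes higher and 0 lower and changed no member's call. With 3 libraries a group, the shares and ratios carry no test, and a count of 0 allows up to 3 counts.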
